A study of Mus musculus with 3 samples.

Results

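Fibroblasts of the caput epididymis were taken as the cells of the caput library that met a rule on matrix genes, and 297 cells met it, of 4936 caput cells with at least 1000 unique molecular identifiers (UMIs, each standing for 1 captured transcript) and of 14845 cells in the 3 libraries. The rule asked for Col1a1, Col1a2, Col3a1, Dcn and Lum together to reach 40 UMIs per 10000 UMIs of the cell, for at least 3 of these 5 genes to be detected, and for no more than 2 UMIs in all of Pecam1 (endothelium), Ptprc (leukocytes), Myh11 (smooth muscle) and Krt5 (basal epithelium). These values chose the cells, so the levels of the 5 matrix genes and the contrast with the rest of the caput are a description and were not tested.

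Untreated wild-type mice of the C57BL/6 strain, aged 56 days, gave the tissue, which was cut into caput, corpus and cauda before 1 single-cell library per region was made on a microfluidic chip. Tissue was dispersed enzymatically, strained, and cleared of red blood cells by lysis before loading. The labels used here do not give the number of mice or whether they were pooled. The caput library is therefore a single sample, no comparison has a replicate check or a p-value, and region and library cannot be told apart.

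The 3 libraries held 41500792 UMIs in 4961 cells (caput), 21495211 UMIs in 4959 cells (corpus) and 18341476 UMIs in 4925 cells (cauda). The 297 caput fibroblasts had a median of 3767 UMIs (1576 to 48281) and 1602 genes, with 4.99% of UMIs from mitochondrial genes. The same rule kept 870 corpus cells (median 2658 UMIs, 9.75% mitochondrial) and 2661 cauda cells (median 2573 UMIs, 7.74% mitochondrial). Levels are given as CPM (UMIs of a gene per 1000000 UMIs) over the summed UMIs of a set of cells, 1450084 UMIs for the caput fibroblasts. Brackets hold exact 95% intervals, Poisson for a level, conditional binomial for a ratio and Clopper-Pearson for a share, and all cover counting error only. CPM is not divided by transcript length, so each gene is compared between sets of cells and not with another gene.

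Fibroblasts are the matrix-producing cells of connective tissue. In the epididymis they lie between and around the turns of the duct, outside its epithelium and smooth muscle coat, and secrete collagens, proteoglycans and growth factors that reach the epithelium. Activins and bone morphogenetic proteins (BMPs) are secreted dimers that act through paired serine/threonine kinase receptors, and follistatin and chordin-like proteins bind these ligands outside the cell. Hox genes encode transcription factors whose expression along the body axis and along the reproductive duct marks position.

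The share of caput cells called fibroblasts was 6.02% (5.37 to 6.72). It was 17.8% (16.8 to 19.0) in the corpus and 71.3% (69.8 to 72.7) in the cauda under the same rule. Cells outside the rule also differed between libraries. In them the 5 matrix genes had a median of 1.33 UMIs per 10000 in the caput, 5.88 in the corpus and 23.4 in the cauda, and the part of such background in the shares was not tested. In the caput the threshold fell in a thinly filled range, with most cells far lower and a separate hump of cells far higher. Members of the caput had a median sum of 254 per 10000 (41.3 to 1968), against 272 in the corpus and 371 in the cauda.

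**Figure D1:**
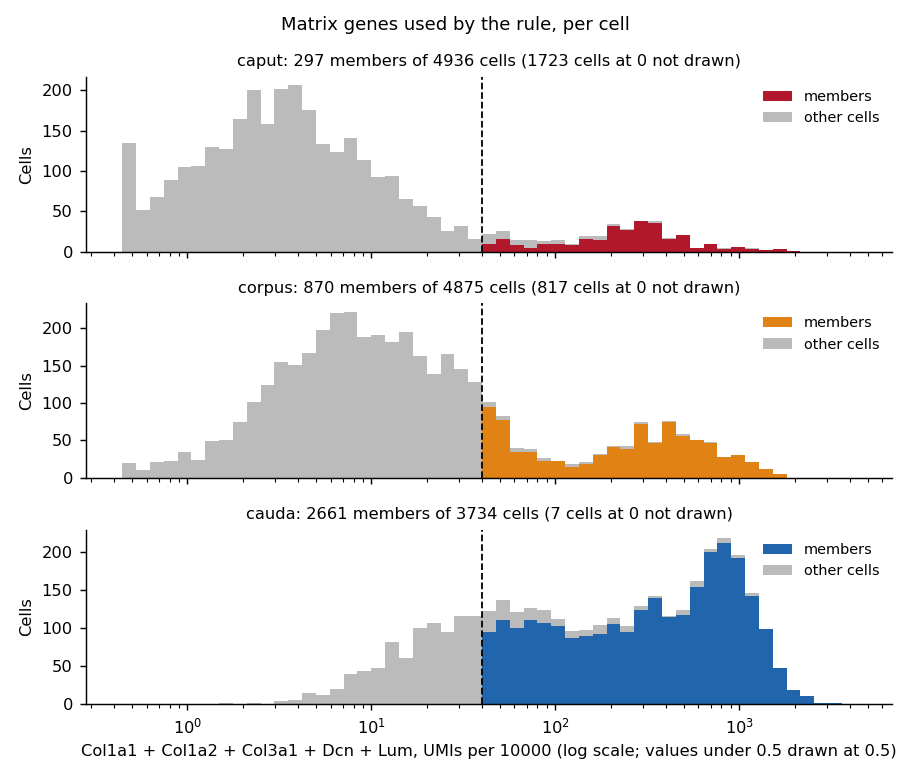
Number of cells (vertical axis) against the summed UMIs of Col1a1, Col1a2, Col3a1, Dcn and Lum per 10000 UMIs of the cell (horizontal log axis) in caput, corpus and cauda. Coloured bars are cells that met the rule, grey bars are stacked on them and show the other cells, and the dashed line is the threshold of 40. Caput members number 297 of the 359 caput cells that reached the threshold, and they lie in a hump apart from most other caput cells. The 2661 cauda members run on from the remaining cauda cells without a gap.

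Within the caput, 359 cells reached the matrix sum, 349 of them had 3 or more of the 5 genes detected, and the 4 excluded genes removed a further set to leave 297. All 5 matrix genes were detected in 158 members, and 213 members had no UMI of the excluded genes. Just inside the threshold, the 12 members with a sum of 40 to 50 had Inhba at 9.92 CPM (0.251 to 55.3) on 1 UMI. Cilp was at 19.8 (2.40 to 71.7) on 2 UMIs, Apod at 486 and Pdgfra at 119. Just outside it, the 38 cells with a sum of 30 to 40 had Inhba at 203 CPM (144 to 278). Cilp was there at 46.9 (21.4 to 89.0), Apod at 219 and Pdgfra at 104, and the 2 Cilp intervals overlapped. No member shared its cell barcode with a cell of another library, although 14 barcodes occurred in both caput and corpus and 21 in both caput and cauda.

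The defining genes of fibroblasts were present. Dcn, a collagen-binding proteoglycan, was detected in 297 of 297 members, and Col1a1, the main chain of type I collagen, in 293. Pdgfra, the receptor by which fibroblasts are usually recognised and no part of the rule, was seen in 188 members and Inhba in 122. A list of 22 fibroblast genes summed to 39380 CPM in members and 670 in the other caput cells.

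Transcripts of other cell types were present as well. The 19 marker genes used for principal cells, the secretory epithelium of the duct, summed to 60021 CPM in the caput fibroblasts and to 123192 in the other caput cells. The same list summed to 12912 CPM in corpus and 5514 in cauda fibroblasts. Gpx5, a secreted glutathione peroxidase of caput principal cells, was found in 297 of 297 members, at 15491 CPM beside 30993 in the other caput cells. It was also at 10296 CPM in caput smooth muscle-like cells and 5903 in caput endothelial-like cells. Markers of blood cells stood at 8491 CPM in the members, of smooth muscle at 1470 (800.0 without Actg2), of clear cells at 481, of macrophages at 320, of endothelium at 199 and of basal cells at 93.1. What part such RNA, or doublets, has in the results was not tested, so ratios for the leading genes are also given without the members that these markers led.

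Beside the other 4639 caput cells, the members were set apart by secreted and matrix proteins. Of 12068 genes with at least 100 UMIs in either set, 230 (1.91%) were higher in the members by the size rule used throughout. The rule asks for a ratio of at least 4, an interval wholly over 2, and at least 100 UMIs in the higher set. Another 57 (0.472%) were higher in the other cells. These held 40038308 UMIs beside 1450084, so a gene could reach 100 UMIs in them alone, and the 2 shares are not compared. As the matrix rule used this contrast, the genes are named only as a description. The largest ratio was that of Cilp, a cartilage intermediate layer protein of the extracellular matrix, at 802 CPM in members and 4.72 in other caput cells (170-fold).

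The next genes by ratio fell in a few kinds. Complement C7 was 146-fold higher, and the growth factor Fgf10, which acts on epithelia, was 125-fold higher at 81.4 CPM against 0.649. Chrdl1, which binds BMPs, was 105-fold higher and Sfrp1, which binds Wnt proteins, 97.3-fold. Matrix and matrix-associated genes followed, with Mfap5 at 111-fold, Clec3b at 107-fold, Col6a1 at 95-fold, Matn2 at 91.6-fold and Smoc2 at 91.1-fold. The carboxypeptidase-like Cpxm1 (107-fold), the Notch-related Dner (106-fold), Ms4a4d (99.5-fold), Nkain4 (97.6-fold) and Pi16 (94.6-fold), a surface marker of fibroblasts around vessels, completed the 15 highest.

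Per cell, these genes were widespread but unequal. Cilp was detected in 238 of 297 members, with a median of 6.52 UMIs per 10000 and a range of 0 to 59.4. Apod, a lipid-binding lipocalin, was detected in 261 members with a median of 24.1 and a highest value of 437. Inhba, which encodes the activin A subunit, had a median of 0 and was detected in 122 members. Inhba was thus a gene of a minority of members at this depth, while Cilp and Apod marked most of them.

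A muscle and a vascular set from the same library show which of these genes are shared. Outside the members, the caput held 124 smooth muscle-like cells and 216 endothelial-like cells, defined by their own marker sums. Another 6 cells met both definitions and were left out. As members could not enter these sets, most caput cells high in matrix genes were kept out of them. Inhba was at 161 CPM (141 to 183) in the fibroblasts and 215 (180 to 254) in the smooth muscle-like cells, but 8.28 (4.28 to 14.5) in the endothelial-like cells. Hoxc8 likewise stood at 376 (345 to 409), 343 (299 to 392) and 24.8 (17.4 to 34.4) CPM. Hoxa7 was at 140, 147 and 110 CPM, a narrower range than that of Hoxc8.

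Other genes were highest in the fibroblasts among these sets. Cilp had 31.3 CPM (19.1 to 48.4) in smooth muscle-like and 6.21 (2.84 to 11.8) in endothelial-like cells, and Apod had 152 and 106 CPM against 4025 in fibroblasts. Sfrp1 was at 1756 CPM in fibroblasts, 208 in smooth muscle-like and 24.8 in endothelial-like cells. Igf1, the growth factor IGF-1, was at 1088 CPM, 90.8 and 86.3, and Penk, the precursor of enkephalin peptides, at 1667, 429 and 46.2. No UMI of Fgf10 was found in either other set, where the interval reached 5.78 and 2.55 CPM.

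**Figure D2:**
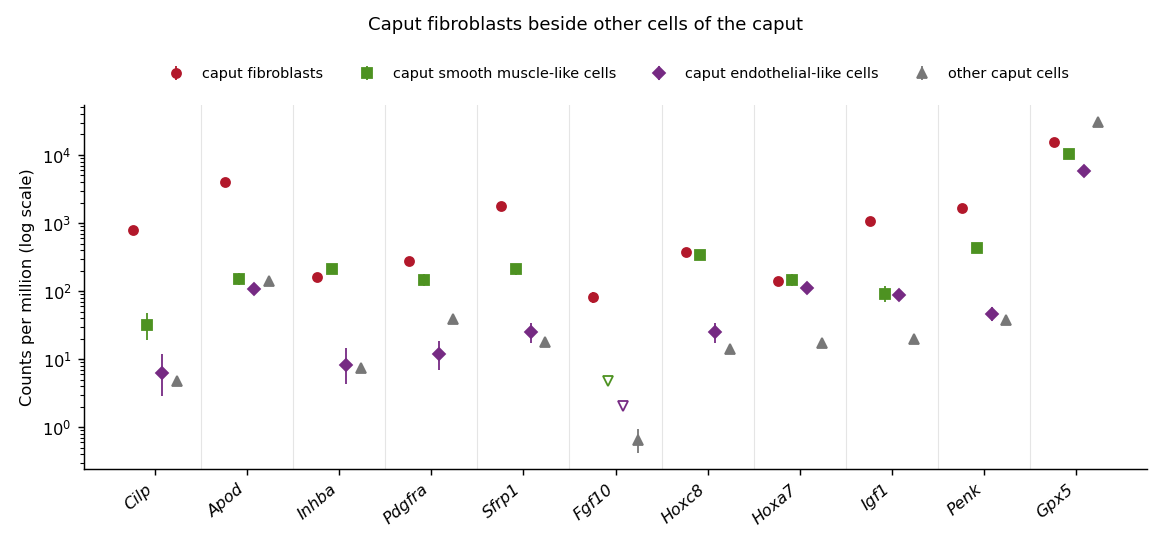
Level of 11 genes in CPM (vertical log axis) in caput fibroblasts (circles), caput smooth muscle-like cells (squares), caput endothelial-like cells (diamonds) and all other caput cells (triangles). Lines are exact 95% Poisson intervals, and an open downward triangle marks a count of 0 drawn at the level that 3 UMIs would give. Cilp, Apod, Sfrp1 and Igf1 were highest in the fibroblasts, Inhba, Hoxc8 and Hoxa7 were as high in smooth muscle-like cells, and Gpx5 was present in each set.

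Clustering of the 297 cells gave 6 groups. Of these, 2 were led by fibroblast genes and held 121 cells, 1 was led by contractile genes and held 59, and 3 were led by genes of other cell types and held 117 (39.4% of members). The groups come from the same counts, so their leading genes are a description. The groups are called by number, since no group received a finer cell type name.

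Group 1, with 96 cells (32.3%), was led by Crispld1, C1qtnf7, Cyp1b1, Inhba, Sema5a, Frmd6, Eln, Boc, Col4a6 and Srpx. It had the highest summed levels of Apod (7271 CPM), Mgp (14508), Inhba (322) and Cilp (1207) among the 6 groups. Crispld1, a secreted protein, was at 602 CPM here and 15.2 in group 5. Mgp encodes matrix Gla protein, which hinders calcification, and Eln encodes elastin.

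Group 5, with 25 cells (8.42%), was the other fibroblast group and had a different profile. It was led by Angptl7, Col6a5, Tnmd, Sult1e1, Cpxm2, Aspn, Postn, Adam23 and Col12a1. Col1a1 stood at 21677 CPM in group 5 and 4691 in group 1, and Smoc2 at 1939 and 506. Tnmd, a membrane protein best known from tendon, reached 373 CPM, Sult1e1, the oestrogen sulfotransferase, 2813, Aspn 981 and Postn 464.

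The genes that mark the caput set were split within it. Apod was at 236 CPM in group 5 against 7271 in group 1, and Fgf10 was at 0 (interval up to 28.0) against 116. Col6a5, a type VI collagen chain, ran the other way, at 2076 CPM against 11.3, and 273 of its 348 UMIs in the caput members came from group 5. Of these UMIs 82 were in 1 cell, and the level over all members was 240 CPM with that cell and 184 without it. Angptl7 was carried still more by 1 cell, with 23 of its 52 UMIs. Cilp, at 1026 CPM, Hoxc8, at 342, and Sfrp1, at 3832, were present in both groups. The 25 cells of group 5 stayed together when the number of groups was raised to 11, in a group of 27 cells. They did so too in a group of 29 when principal-cell, haemoglobin and mitochondrial genes were kept out of the clustering.

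Group 3, with 59 cells (19.9%), was led by the contractile genes Acta2, Tpm2, Itga8, Myl9, Myh11, Mylk, Fblim1 and Nexn with Rasl11a and Cldn11. Acta2, smooth muscle actin, was at 1237 CPM in it and 274 in group 1. Its fibroblast genes remained, with Dcn at 10687 CPM, Apod at 5847, Cilp at 1022 and Inhba at 201. Cxcl14, a chemokine-like secreted protein, had its highest group level here at 540 CPM. Acta2 was detected in 32 of the 59 cells, beside 46 of 96 in group 1. With 11 groups, 29 cells of group 3 fell in a group led by the haemoglobin genes Hba-a1 and Hba-a2, and 23 in one led by Acta2. With principal-cell, haemoglobin and mitochondrial genes kept out of the clustering, 54 were in a group of 100 led by Rasl11a and Acta2. What part smooth muscle RNA has in group 3 was not tested.

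The remaining 3 groups carried the leading genes of other cells. Group 2 (73 cells) was led by principal-cell genes such as Tecta, Ovch2, Adam28, Lcn9, Lcn10 and Defb48, with Ly6g5b, Enpp2 and Klrb1c. Gpx5 stood at 26450 CPM in this group and 4550 in group 1. Group 4 (36 cells) was led by genes of clear cells, the proton-secreting cells of the duct, among them Atp6v1g3 and Clcn5, with Stap1, Defb15, Spink2, Il13ra2, Spink11 and Serpinb9. Group 6 (8 cells) was led by macrophage and antigen-presentation genes, Rgs1, Ccl4, H2-Aa, H2-Ab1, H2-Eb1, Ccl3, Cd74, Csf1r, C1qc and Laptm5. With 11 groups, 26 cells of group 4 fell in a group led by Atp6v1g3 and 10 in one led by Defb15 and Spink2. Of group 2, 43 cells fell in a group led by Defb47 and Defb18, and 21 in one with Adam28 among its leading genes. Another 7 were in a group led by Emcn, with Kdr and Plvap, genes of endothelium.

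Fibroblast genes were lower, though present, in groups 2, 4 and 6. Dcn was at 7512 CPM in group 2, 5244 in group 4 and 9108 in group 6, against 14491 in group 1. The principal-cell markers had a per-cell median of 787 UMIs per 10000 in group 2, 424 in group 4, 427 in group 3, 211 in group 5, 200 in group 1 and 175 in group 6. Groups 1, 5 and 6 were thus lowest in epithelial RNA. Blood cell markers differed between groups as well, at 20978 CPM in group 5, 16682 in group 3, 10180 in group 2 and 2747 in group 1, and their part in the grouping was not tested.

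**Figure D3:**
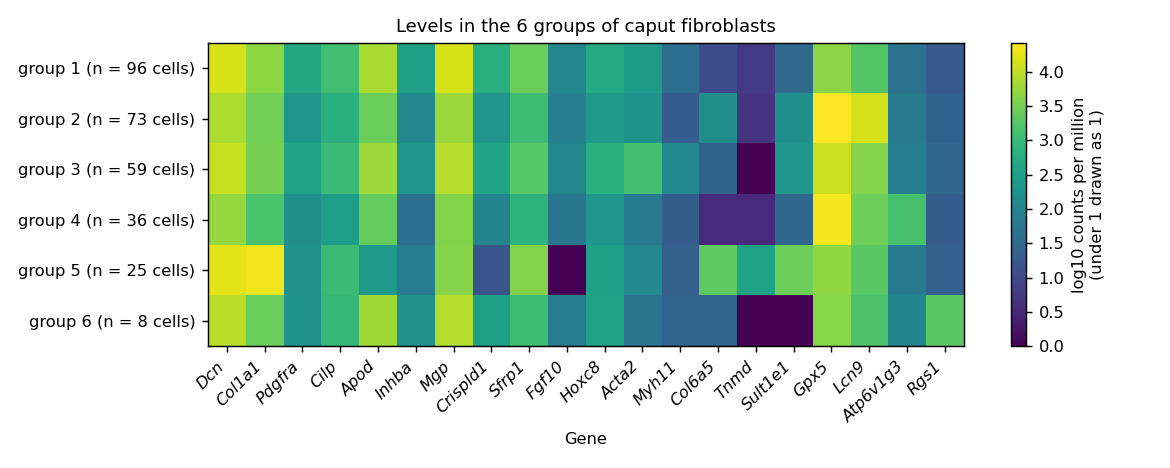
Level of 20 genes, as log10 CPM on the colour scale, in the 6 groups of caput fibroblasts (one line of tiles for each group, with its number of cells). Group 5 stands out by Col1a1, Col6a5, Tnmd and Sult1e1 and by little Apod or Crispld1 and no Fgf10, group 3 by Acta2, group 2 by Gpx5 and Lcn9, group 4 by Atp6v1g3 and group 6 by Rgs1.

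The caput members were next set beside their counterparts in the other regions, to see which genes differed along the duct. Both comparisons use the same caput cells, so they are not independent of each other, and each gene's values are given side by side. Of 3761 genes deep enough to test against the corpus, 80 (2.13%) were higher in caput and 109 (2.9%) in corpus fibroblasts by the size rule. Of 7843 against the cauda, 114 (1.45%) were higher in caput and 296 (3.77%) in cauda fibroblasts. The sums held 1450084 UMIs in caput, 2958365 in corpus and 9700336 in cauda fibroblasts. A gene higher in corpus or cauda thus reached the UMI minimum of the size rule more easily, and the directions are not compared. With the sums thinned to the smallest total, chosen after seeing the data, 80 genes were higher in caput and 67 in corpus. Against the cauda the thinned counts were 117 in caput and 90 in cauda, so the order of the directions was reversed in both comparisons. The gene lists below are counted over genes with at least 20 UMIs in the compared sets together. Counted so over all genes, 80 were higher and 109 lower in caput of 10631 against the corpus. Against the cauda 114 were higher and 296 lower of 13221. The median log2 ratio over the tested genes was 0.05 against the corpus and 0.01 against the cauda. The set called cauda fibroblasts is every cauda cell that met the rule, 71.3% of that library, and how many of its cells are not fibroblasts was not tested.

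Most genes that were higher in caput fibroblasts were less than 2 times as high as in the other caput cells. A level at least 2 times that of the other caput cells was met by 7 of the 80 genes against the corpus and by 17 of the 114 against the cauda. In the other direction, 30 of 109 and 57 of 296 genes were at least 2 times above the other cells of the corpus or cauda library. Of the genes named from here as past the size rule, some did not meet this condition in the region where they were higher. These were Clu, Apoc1 and Hoxb7 in the caput, Ccl7, Ccl8, Fabp4 and Prm2 in the corpus, and C1qa, C1qb, C1qc, C3ar1, C5ar1, Ccl7, Ccl8, Cd36, Cebpb, Crabp2, Emilin2, Fn1, Ifi204, Nfil3, Nr4a2, Nr4a3, Plau and Trf in the cauda.

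Cilp, Apod and Inhba, the markers given for these cells, were higher in caput than in both other regions. Among other genes at least 2 times above the other caput cells, Wfdc18, Hoxc8, Hoxa7 and Itgbl1, described further on, had larger ratios in one or both comparisons. Cilp (chr9:65265180-65280605 on the plus strand, mouse build GRCm38) was at 802 CPM (757 to 849) in caput, 104 (93.1 to 117) in corpus and 84.4 (78.7 to 90.4) in cauda fibroblasts. Caput was 7.68-fold (6.77 to 8.73) over corpus and 9.50-fold (8.68 to 10.4) over cauda. Its intervals in the 3 regions did not overlap between caput and either other region.

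Apod (chr16:31296192-31314808, minus strand) was at 4025 CPM (3922 to 4129), 705 (675 to 736) and 524 (509 to 538). This made caput 5.71-fold (5.43 to 6.01) over corpus and 7.69-fold (7.40 to 7.98) over cauda. Inhba (chr13:16011851-16031621, plus strand) was at 161 CPM (141 to 183), 15.2 (11.1 to 20.4) and 31.9 (28.4 to 35.6). Its ratios were 10.6 (7.68 to 14.9) over corpus and 5.07 (4.26 to 6.02) over cauda. For Inhba the order of corpus and cauda was thus the reverse of that for Cilp and Apod, with caput highest in each case.

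Leaving out the 117 caput members led by genes of other cell types, with the other regions left whole, moved these ratios up. As no such cells were taken out of corpus or cauda, the rise itself is not a difference between regions. Cilp was then 10.7-fold (9.36 to 12.2) over corpus and 13.2-fold (12.0 to 14.6) over cauda. Apod was 7.82-fold and 10.5-fold higher, and Inhba 15.7-fold (11.2 to 22.4) and 7.50-fold (6.17 to 9.09). With all members over 2% principal-cell UMIs left out, 78 caput members remained. Among these, Cilp was 9.40-fold over corpus, Apod 6.11-fold and Inhba 10.2-fold, the last no longer on 100 UMIs. With the matrix threshold raised to 200 per 10000 in each region, Cilp was 8.68-fold over corpus and 11.5-fold over cauda, and Inhba 11.1-fold and 5.25-fold.

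The differences were also seen cell by cell. With every cell thinned to 1000 UMIs, Cilp was detected in 50.2% of caput fibroblasts, 7.36% in the corpus and 3.68% in the cauda, and in 0.463% of caput endothelial-like cells, which should lack it. Before thinning, the shares were 80.1%, 15.1% and 8.12%. Apod was detected in 70.7%, 24.6% and 24.1% of thinned fibroblasts and 8.33% of endothelial-like cells. Inhba was detected in 15.5%, 1.15% and 2.63%, with 0.463% of endothelial-like and 21.0% of smooth muscle-like cells. Pdgfra differed less, at 26.6%, 12.3% and 14.0%, with 281, 148 and 212 CPM.

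The 250 bases before the start site of each of these genes are shown because they are the 3 markers of the set that were higher in caput than in both other regions (RefSeq, build GRCm38.p6, on the gene's strand, with capitals marking TATAA).
Cilp, chr9:65264930-65265179, plus strand: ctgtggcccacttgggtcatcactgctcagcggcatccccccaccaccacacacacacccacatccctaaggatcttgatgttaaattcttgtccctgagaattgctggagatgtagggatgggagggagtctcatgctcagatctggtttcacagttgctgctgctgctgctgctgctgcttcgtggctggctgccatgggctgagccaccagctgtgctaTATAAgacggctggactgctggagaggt
Apod, chr16:31314809-31315058, minus strand: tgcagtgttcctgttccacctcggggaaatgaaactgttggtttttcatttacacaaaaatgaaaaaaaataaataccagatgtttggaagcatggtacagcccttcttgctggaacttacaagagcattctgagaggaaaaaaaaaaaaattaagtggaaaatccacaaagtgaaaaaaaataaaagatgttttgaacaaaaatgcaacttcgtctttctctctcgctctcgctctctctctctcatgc
Inhba, chr13:16011601-16011850, plus strand: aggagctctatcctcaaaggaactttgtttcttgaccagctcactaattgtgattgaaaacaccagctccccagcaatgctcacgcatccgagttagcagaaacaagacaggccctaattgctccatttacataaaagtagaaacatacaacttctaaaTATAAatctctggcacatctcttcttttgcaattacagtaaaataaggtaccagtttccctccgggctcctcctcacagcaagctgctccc
The letters TATAA occurred 28 bases before the start in Cilp and 91 bases before it in Inhba, and in neither direction in Apod. Of 32851 promoter windows of this length, 22.8% hold them on either strand. None of the 3 windows held the steroid receptor half-site AGAACA on either strand, which 16.1% of promoters hold. The AP-1 site TGACTCA, held by 4.46%, and the GC box GGGCGG, held by 32.7%, were also not found in them. Their GC contents were 56% (Cilp), 36.4% (Apod) and 43.2% (Inhba) against a median of 52.4%, with 3, 4 and 3 CpG dinucleotides against a median of 6. These matches describe letters only, and no binding was measured.

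**Figure D4:**
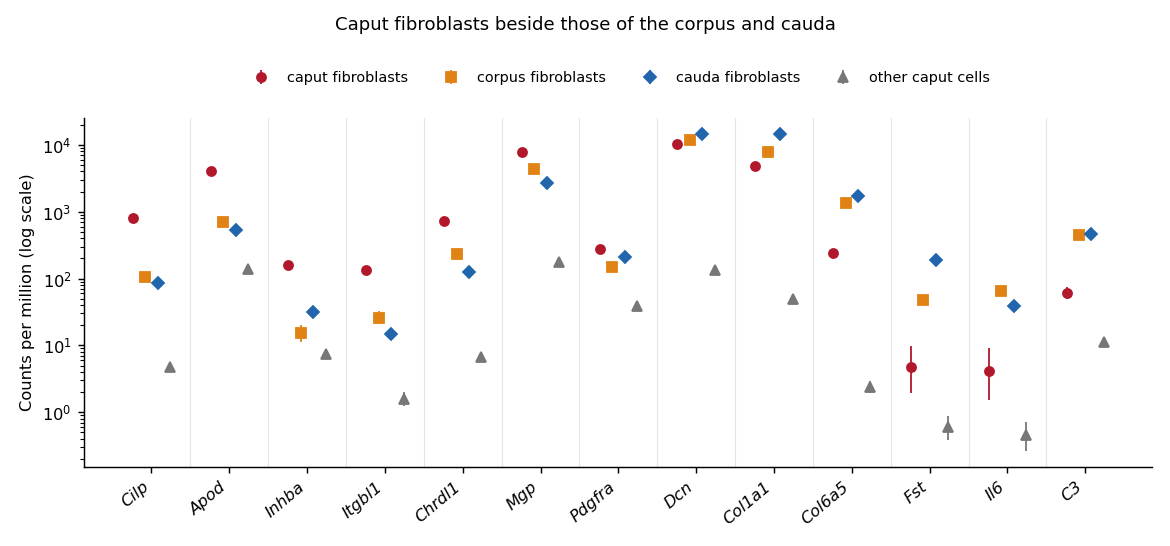
Level of 13 genes in CPM (vertical log axis) in caput (circles), corpus (squares) and cauda (diamonds) fibroblasts and in other caput cells (triangles), with exact 95% Poisson intervals. Cilp, Apod, Inhba, Itgbl1, Chrdl1 and Mgp were highest in caput fibroblasts, Pdgfra and Dcn differed by less than 2-fold between caput and the other regions, and Col6a5, Fst, Il6 and C3 were lowest in caput fibroblasts among the 3 regions.

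Several further secreted or membrane proteins were higher in the caput. Itgbl1, a secreted protein related to integrin beta chains, was at 132 CPM in caput, 26.0 in corpus and 14.7 in cauda, which is 5.09-fold and 8.98-fold. Crispld1 was at 286, 133 and 43.6 CPM and passed the size rule against the cauda only (6.56-fold). Fxyd6, a regulator of the sodium pump, was at 163, 69.0 and 26.9 CPM and was 6.07-fold over cauda.

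Wfdc18, a protein with a whey acidic domain, had the largest ratio among genes at least 2 times above the other caput cells, but through 1 cell. Genes short of that condition had larger ratios. The principal-cell gene Lcn9 was at 5762 CPM in caput and 1.01 in corpus fibroblasts, and at 10798 in the other caput cells. Wfdc18 stood at 117 CPM in caput fibroblasts and 0.676 in corpus, a ratio of 172 (47.0 to 1435), and was 41.9-fold over cauda. In all, 143 of its 169 UMIs were in 1 cell of group 2, and the level without that cell was 18.0 CPM. Smcp, a sperm mitochondrial gene, had 207 of 214 UMIs in 1 cell, and Ccl2, a monocyte chemokine, 89 of 102. Without these cells Smcp was at 4.84 CPM and Ccl2 at 9.03.

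Among the ligands and antagonists of the activin and BMP pathway, Inhba and Fst differed in opposite directions. Fst encodes follistatin, which binds activin A (chr13:114452290-114458951, minus strand). It had 7 UMIs in caput fibroblasts, or 4.83 CPM (1.94 to 9.95), beside 47.7 (40.1 to 56.2) in corpus and 186 (178 to 195) in cauda. Corpus was 9.87-fold (4.67 to 25.0) and cauda 38.6-fold (18.7 to 96.2) over caput. Without the caput members led by genes of other cell types, and with the other regions left whole, these ratios were 11.0 (3.70 to 54.2) and 43.2 (14.8 to 210).

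Detection per cell gave the same order. After thinning, Fst was detected in 0.337% of caput fibroblasts, 3.56% in the corpus and 11.8% in the cauda, and before it in 2.02%, 9.89% and 26.3%. In the thinned caput cells 46 had Inhba without Fst, 1 had Fst without Inhba, none had both and 250 had neither. In the corpus the counts were 9, 30, 1 and 830, and in the cauda 53, 296, 17 and 2295. Caput fibroblasts with either gene thus mostly had Inhba, and those of the other regions mostly Fst.

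Chrdl1 was the other antagonist of the list past the size rule, in the direction opposite to Fst. Bmper, a BMP-binding protein outside the list, was lower in caput as Fst was. Chrdl1 was at 716 CPM in caput, 229 in corpus and 126 in cauda, 3.12-fold and 5.69-fold (5.23 to 6.19). Of 20 ligands and antagonists measured against the corpus (at least 20 UMIs), 1 was higher and 1 lower in caput, with a median log2 ratio of 0.37 beside 0.08 for all 10631 genes measured alike. Against the cauda 2 of 22 were higher and 1 lower, with a median of -0.08 beside -0.004 for 13221 genes.

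Inhbb, the other activin subunit, had 35 UMIs in the caput, too few for the size rule, at 24.1 CPM (16.8 to 33.6) beside 5.75 in corpus and 0.722 in cauda. It was at 14.2 CPM in the other caput cells. The TGF-beta gene Tgfb3 stood at 137, 53.1 and 69.5 CPM, Bmp4 at 54.5, 33.5 and 28.0, and Gdf10, a BMP-related gene, at 150, 127 and 128. Tgfb2 was at 274, 233 and 421 CPM and the follistatin-like Fstl1 at 340, 438 and 573.

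No receptor of the pathway passed the size rule in either comparison. Bmpr1a, a type I BMP receptor, was at 92.4 CPM in caput fibroblasts and 46.0 in other caput cells, and the co-receptor Tgfbr3 at 62.8 and 8.62. Bmpr2 was at 60.7 and 44.2 CPM. The activin receptor genes were sparse in both, with Acvr2a at 13.1 and 15.8 CPM, Acvr2b at 4.14 and 3.77, and Acvr1b at 1.38 and 3.32.

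Several Hox genes were ordered along the duct. Hoxc8 (chr15:102990607-102994111, plus strand) was at 376 CPM (345 to 409) in caput, 79.4 (69.6 to 90.3) in corpus and 13.8 (11.6 to 16.4) in cauda fibroblasts. Caput was 4.73-fold (4.05 to 5.54) over corpus and 27.2-fold (22.5 to 33.1) over cauda. Without the caput members led by genes of other cell types, and with the other regions left whole, caput was 6.58-fold and 37.8-fold higher. Hoxa7 (chr6:52214491-52221854, minus strand) was at 140 CPM (121 to 161), 33.1 and 5.67, which is 4.23-fold (3.30 to 5.43) and 24.7-fold (18.2 to 33.9). In both genes the intervals of the 3 regions were separate, with the highest level in caput and the lowest in cauda.

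Other genes of low number had the same order. Hoxc6 was at 87.6, 38.9 and 17.9 CPM, past the size rule against the cauda at 4.88-fold, and Hoxa5 at 60.7, 14.2 and 7.94. Hoxa10 and Hoxa11 had the reverse order. Hoxa10 had 2 UMIs in the caput members (1.38 CPM), 26.4 CPM in corpus and 92.1 in cauda, where it was 66.7-fold (18.4 to 552) over caput. Hoxa11 had none in the caput (interval up to 2.54 CPM), 1.35 CPM in corpus and 41.8 in cauda, at least 20.2-fold higher in cauda when caput is set to a floor of 3 UMIs.

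Hoxc10 had no UMI in caput fibroblasts either. It was at 38.2 CPM in corpus and 25.8 in cauda, at least 18.5-fold and 12.5-fold higher. Hoxc9 lay between, at 58.6 CPM in caput, 124 in corpus and 29.2 in cauda, with its highest level in the corpus. Among these Hoxc genes the highest level was thus in caput for Hoxc8 and in corpus for Hoxc9 and Hoxc10.

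Of 19 Hox genes measured against the corpus, 2 were higher and 1 lower in caput fibroblasts, and 15 had a log2 ratio above 0, with a median of 1.19, beside 5911 of 10631 genes above 0 and a median of 0.08 over all genes. Against the cauda 4 of 24 were higher and 3 lower, and 15 were above 0, with a median of 1.43, beside 6590 of 13221 genes above 0. Hoxb7, 1 of these 4, was higher still in the other caput cells, at 333 CPM beside 141 in the fibroblasts, as was Hoxb6 at 158 and 64.8. Thinned to 1000 UMIs, Hoxc8 was detected in 33.0% of caput fibroblasts, 5.17% in the corpus and 1.05% in the cauda, with 1.85% of caput endothelial-like cells. Hoxa7 was detected in 12.5%, 2.30% and 0.338%.

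**Figure D5:**
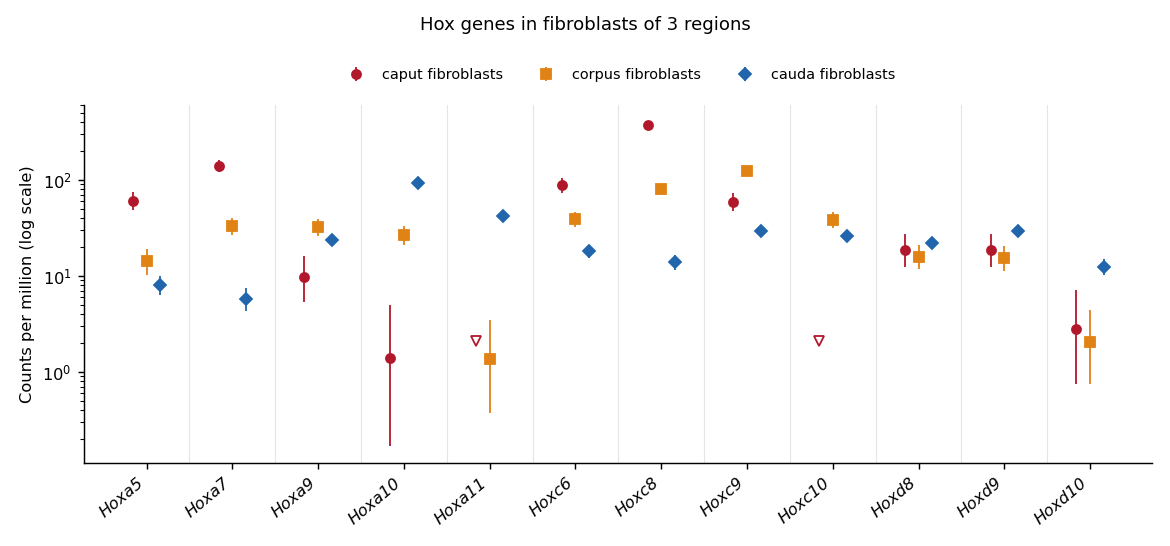
Level of 12 Hox genes in CPM (vertical log axis) in caput (circles), corpus (squares) and cauda (diamonds) fibroblasts, with exact 95% Poisson intervals; open downward triangles mark a count of 0, drawn at the 2.07 CPM that 3 UMIs give in the caput. Hoxa5, Hoxa7, Hoxc6 and Hoxc8 were highest in caput and lowest in cauda, while Hoxa10 and Hoxa11 were highest in cauda.

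Most fibrillar collagen genes were lower in the caput members, by less than the size rule asks, with 6 of 8 under a log2 ratio of 0 in each comparison. Col1a2, part of the rule, was at 9334 CPM in caput, 12424 in corpus and 21011 in cauda, and Col5a2, which was not used, at 265, 362 and 574. None of the 8 passed the size rule in either comparison, with median log2 ratios of -0.43 and -1.14. The rule used 3 of these genes in every region, so their part in that median is fixed in some measure by the choice of cells.

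Among 11 microfibril and fibril-associated collagens 2 genes passed, both lower in caput, and the list's median log2 ratio was 0.26 against the corpus and -0.54 against the cauda. Col6a5 was at 240 CPM in caput, 1340 in corpus and 1737 in cauda (5.58-fold and 7.24-fold over caput) and Col6a6 at 6.21, 39.9 and 46.4 (6.43-fold and 7.47-fold). Col6a1, Col6a2 and Col6a3, the chains that make up common type VI collagen, did not pass, at 685, 416 and 228 CPM in caput and 598, 365 and 164 in corpus. After thinning, Col6a5 was detected in 7.07% of caput fibroblasts, 22.3% in the corpus and 35.0% in the cauda.

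Apod and Col6a5 divided the cells differently in each region. In the thinned caput, 204 cells had Apod alone, 15 had Col6a5 alone, 6 had both and 72 neither. In the corpus the counts were 200, 180, 14 and 476, and in the cauda 474, 765, 167 and 1255. Cells with Apod alone outnumbered cells with Col6a5 alone in the caput, were close to them in the corpus and were fewer in the cauda.

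Elastic fibre and matricellular genes were mixed. Mfap4, a microfibril protein, was at 1445, 509 and 323 CPM and 4.47-fold over cauda, and Smoc2, a calcium-binding matrix protein, at 494, 214 and 104 and 4.74-fold over cauda. Mgp was at 7846, 4368 and 2694 CPM and did not reach 4-fold. Fn1, fibronectin, ran the other way at 12.4, 67.3 and 111 CPM, as did Smoc1 at 7.59, 38.5 and 74.7.

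By list, 1 of 27 matricellular genes was higher and 2 lower against the corpus, and 2 of 31 higher and 3 lower against the cauda, with Spon1 as the third lower gene at 46.9 and 224 CPM. Efemp1 alone among 21 elastic fibre genes passed against the corpus, at 62.8 CPM beside 292. Against the cauda, Mfap4 was higher and Emilin2 lower (3.45 CPM beside 19.0). Fbln5, an elastic fibre protein short of 4-fold, was at 259, 112 and 77.9 CPM, and Eln at 230, 157 and 215. None of the small leucine-rich proteoglycans (11 measured) or basement membrane genes (19 and 21) passed. Dcn stood at 10177, 12009 and 14741 CPM and Ogn, a related proteoglycan, at 2563, 1714 and 1702.

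Matrix proteases and their inhibitors held no gene past the size rule against the corpus and 3 of 33 lower against the cauda. These were Pi16 (94.5 CPM in caput, 419 in cauda), Pcolce2, an enhancer of procollagen cleavage (25.5 and 109), and the plasminogen activator Plau (2.76 and 20.9). Serping1, the C1 inhibitor, was nearly level at 2621, 2562 and 2083 CPM.

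Among growth factors the fibroblasts of all 3 regions carried Igf1 and Penk. Igf1 was at 1088 CPM in caput, 2111 in corpus and 2425 in cauda, and Penk at 1667, 1919 and 2128. Fgf10 was at 81.4 CPM (67.4 to 97.5), 43.9 (36.7 to 52.2) and 39.3 (35.4 to 43.4), under the size rule with separate intervals between caput and the other 2 regions. Its receptor gene Fgfr2 was at 9.65 CPM in the fibroblasts and 15.7 in the other caput cells, while Fgfr1 was at 104 and 11.5. Igf1r was at 106 and 139 CPM.

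Il6 and Figf were lower in the caput. Il6, an inflammatory cytokine, was at 4.14 CPM beside 65.6 in corpus (15.8-fold, 7.15 to 43.7) and 39.3 in cauda (9.49-fold). Figf, the lymphatic growth factor VEGF-D, was at 13.8, 66.6 and 43.5 CPM and passed against the corpus. Fgf18 passed against the cauda, at 8.28 and 36.5 CPM.

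The Wnt list gave 1 gene past the size rule, Sfrp4. Sfrp1 was at 1756 CPM in caput, 1157 in corpus and 575 in cauda, a ratio over cauda of 3.06 (2.92 to 3.20), short of the size rule. Wnt5a was at 273, 167 and 142 CPM. Sfrp4, a related Wnt-binding protein, was lower in the caput, at 6.21 CPM beside 24.0 and 58.8, and passed against the cauda.

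Few steroid genes differed by the size rule. The glucocorticoid receptor Nr3c1 stood at 123, 114 and 127 CPM. Hsd11b1, which regenerates active glucocorticoid, was at 84.8, 103 and 20.5 CPM and was the only gene of the list past the size rule in either comparison, at 4.13-fold (3.27 to 5.20) over cauda.

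Several chemokine and complement genes were lower in caput fibroblasts. Of 23 chemokine and cytokine receptor genes measured against the corpus 5 were lower and none higher, and of 28 against the cauda 4 were lower and none higher, with medians of -0.14 and -0.84 on the log2 scale. Of the 23, 16 had a log2 ratio below 0, beside 4720 of 10631 genes in all. Cxcl13, a B-cell chemokine, had 2 UMIs in caput (1.38 CPM) beside 156 CPM in corpus, 113-fold (31.2 to 938), and 22.5 in cauda, 16.3-fold. Ccl8 was at 0 in caput, 142 in corpus and 765 in cauda, but at 178 in the other corpus and 1034 in the other cauda cells, so it did not set fibroblasts apart there. Ccl7 was at 8.28, 77.7 and 180 CPM and Cxcl1 at 46.9, 271 and 184.

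C3, the central complement protein, was at 60.7 CPM in caput, 443 in corpus (7.31-fold) and 461 in cauda (7.60-fold). Of 16 complement genes measured against the corpus, C3 was lower and Clu higher. Of 17 against the cauda 6 were lower and 1 higher, the lower ones being C3, C3ar1, C5ar1 and 3 chains of C1q. Over all genes measured against the cauda, 296 of 13221 were lower and 114 higher. The macrophage genes C1qa, C1qb and C1qc stood at 14.5, 46.2 and 56.5 CPM in caput and 214, 389 and 369 in cauda. The macrophage markers summed to 320 CPM in caput, 693 in corpus and 2804 in cauda fibroblasts, and their part in these differences was not tested. Clu, an extracellular chaperone, was higher in the caput members at 1881, 467 and 238 CPM, but was at 3456 CPM in the other caput cells.

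Immediate early genes, which respond to tissue dissociation, had Fos at 4338 CPM in caput, 5102 in corpus and 5884 in cauda and Jun at 3685, 2742 and 3657. None of 33 passed against the corpus and 2 of 34 were lower against the cauda (Nr4a2 and Nr4a3), with medians of -0.39 and -0.89. Of 20 cell cycle genes none passed in either comparison, and their medians were -1.02 and -0.17.

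Adventitial and parenchymal fibroblast programmes were compared by list. Adventitial genes, which mark fibroblasts around vessels and at organ borders, had 2 of 25 lower against the corpus and 6 of 26 lower against the cauda, none higher, with medians of -0.66 and -0.92. Over all genes measured alike, 109 of 10631 and 296 of 13221 were lower, with medians of 0.08 and -0.004. Among the adventitial genes, Ly6c1 was at 139 CPM in caput, 614 in corpus and 809 in cauda. Ly6a, the Sca-1 antigen, was at 605, 1262 and 1698 CPM and Cd34 at 248, 289 and 337, both short of the size rule.

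Parenchymal genes, found in fibroblasts inside organs, had 1 of 22 higher against the corpus (Apod), and 3 higher (Apod, Smoc2 and Hsd11b1) and 1 lower (Igfbp3) against the cauda, with medians of 0.005 and 0.10. Gpc3, a cell-surface proteoglycan on this list, was level at 566, 543 and 419 CPM, and Lpl, lipoprotein lipase, at 488, 505 and 504. Among 16 activated-fibroblast genes measured against the corpus, Cilp and Inhba were higher and Cthrc1 lower against the corpus. Of 18 measured against the cauda 3 were higher, with Acta2 beside Cilp and Inhba, and 2 were lower, Sfrp4 among them. Acta2 was at 323 CPM in caput and 69.3 in cauda (4.67-fold). Postn, another gene of that list, was at 68.3 CPM in caput, 233 in corpus and 265 in cauda. Smooth muscle markers summed to 1470 CPM in caput, 507 in corpus and 359 in cauda fibroblasts, of which Actg2 alone gave 670, 4.73 and 7.11. Actg2 was at 1369 CPM in the other caput cells, and without it the sums were 800.0, 502 and 352. Their part in the Acta2 difference was not tested.

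Lipid genes held Apod as the sole gene higher against the corpus, of 28 measured, with Car3 and Fabp4, a fatty acid carrier of fat cells and vessels, lower. Fabp4 was at 4.14 CPM in caput, 59.2 in corpus and 12.1 in cauda. Against the cauda Apod and Apoc1 were higher and Car3, Cd36 and Cebpb lower, but Apoc1 was at 128 CPM in the caput members and 313 in the other caput cells. Gsn, the actin-severing protein gelsolin, was level at 5886, 5856 and 5254 CPM and far over the 155 of other caput cells. Cebpd was likewise level at 572, 587 and 545 CPM, and Ptgis, prostacyclin synthase, at 135, 127 and 117.

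No gene of the integrin and matrix receptor list passed (20 and 28 measured, medians 0.29 and 0.18), with Itgb1, the common integrin beta chain, at 549, 456 and 450 CPM. None of the growth factor receptors passed (20 and 22 measured), and none of the 26 interferon and antigen-presentation genes. Of the axon guidance and nerve contact genes, 1 of 25 was lower against the cauda, Cntn1, with no UMI in the caput members. Nrp1, a semaphorin and VEGF co-receptor, was at 159, 72.3 and 95.2 CPM, and Slit3, a guidance ligand, at 262, 350 and 530.

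None of 16 collagen processing genes passed the size rule, with medians of -0.01 and -0.29. P4ha2, a collagen prolyl hydroxylase, was at 234 CPM in caput fibroblasts, 83.5 in corpus and 103 in cauda, but at 331 in the other caput cells. Serpinh1, the collagen chaperone, was at 710, 854 and 896. Of the IGF-binding proteins, Igfbp3 was lower against the cauda, at 26.2 CPM beside 160, and Igfbp7 was at 1286, 2630 and 2678 CPM. Of the retinoid genes 1 of 17 was lower against the cauda, Crabp2, on 3 caput UMIs (2.07 CPM beside 14.5).

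Among transcription factors of the mesenchyme outside the Hox family, none of 37 passed against the corpus and 2 of 39 were lower against the cauda (median -0.49). Tcf21 was at 176, 199 and 164 CPM, Nr2f2 at 283, 301 and 280, Prrx1 at 151, 154 and 131 and Osr2 at 150, 139 and 106. The 2 genes lower against the cauda were Wt1 and Ebf2, at 2.76 and 1.38 CPM beside 21.6 and 21.9, the latter on 2 UMIs in caput (15.8-fold, 4.33 to 132).

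The remaining genes that were lower in the caput were of several kinds. Car3, a carbonic anhydrase of fat cells, was at 0 in caput, 141 in corpus and 32.8 in cauda, at least 68.3-fold and 15.8-fold higher than a floor of 3 caput UMIs. Trf, transferrin, was at 13.8, 293 and 147 CPM, with corpus 21.2-fold and cauda 10.6-fold over caput. Bmper was at 5.52, 65.9 and 53.9 CPM, and Tnfaip6, a hyaluronan-binding protein, at 15.2, 126 and 166. The transcription factor Nfil3 was at 4.14 CPM beside 35.2 and 46.7, a call against the corpus that held under 11 of 18 alternatives, and the interferon gene Ifi204 at 5.52 beside 50 and 60.8.

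A few genes higher in the cauda rested on almost no caput reads. The non-coding RNA H19 had 2 UMIs in the caput, with a ratio of 23 (6.32 to 191), Spz1, a testis transcription factor, 1 UMI (18.2, 3.21 to 726), and Scube2 1 UMI (16, 2.81 to 638). Prm2, the sperm protamine, was at 6.90 CPM in caput and 126 in cauda fibroblasts (18.3-fold), at 142 in corpus fibroblasts and at 197 in other corpus cells. Prm2 and Spz1 are known from germ cells, and the part of sperm RNA in these values was not tested.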

How the data were processed

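Single-cell libraries of caput, corpus and cauda, 1 each, were read from a deposited matrix of UMI counts (24335 genes by 14845 cells); every column was matched to its library. Per the submitters' processing notes, the authors used STAR 2.7.3a, UMI-tools (no version given) and the genome GRCm38.p6. No source used here says how cells were called. The deposited counts were used as they stand. The members and gene lists were chosen with earlier results of these data known, so no list supports its own direction.

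Cells under 1000 UMIs were left out, and no doublet caller was run. Counts were summed over the cells of a set; with 1 library a region no test was possible. Genes named are the markers of the set, the 10 largest ratios per direction that were also at least 2 times the other cells of the same library, the 15 largest over other caput cells seen in at least 25% of members, each list's 4 most abundant genes or those past the size rule, and the leading genes of groups. Other genes with values (receptors, neighbours among the Hox genes, and genes short of the rule) come from the fixed lists and were chosen after their values were seen. Transcripts with clone names were counted and not named. A ratio against 0 used a floor of 3 UMIs over the set. Sult1e1, which was higher in the members than in other caput cells, was left out of the principal-cell marker sum, so 19 genes were used; the other marker sums hold each listed gene in the matrix. Smooth muscle-like cells had a sum of 40 per 10000 over 5 genes (Acta2, Myh11, Tagln, Myl9, Cnn1), and endothelial-like cells 20 over Pecam1, Cdh5, Egfl7, Emcn and Kdr, 3 detected in each. Both were drawn from caput cells outside the members, without the 6 cells that met both definitions. Groups came from Leiden clustering (resolution 0.5, 1000 variable genes, 15 principal components, 15 neighbours). Thinned shares used 1000 UMIs from each cell. Python 3.11.15, scipy 1.17.1, scanpy 1.11.5, R 4.3.3, edgeR 4.0.16 (TMM factors) and DESeq2 1.42.0 (size factors, both as scaling alternatives only) were used. Gene positions are of GRCm38 and promoter sequences of RefSeq, GRCm38.p6.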

Additional observations from a re-analysis of the deposited data

How the results depend on the processing

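No paired analysis was possible because each region is 1 library with no replicate numbers. Alternatives were compared with the main values of 6.02% members and of 80, 109, 114, 296 and 230 genes (higher in caput than corpus, corpus than caput, caput than cauda, cauda than caput, and members than other caput cells). The member share was 6.95% at a threshold of 20 per 10000, 5.27% at 80, 4.32% with no UMI of the excluded genes and 3.91% at 200, the last chosen after seeing the data. At 200 per 10000 the counts from corpus over caput to cauda over caput were 70, 71 and 169. With members over 2% principal-cell UMIs left out the 5 counts were 17, 67, 34, 103 and 110, and with each cell thinned to 1000 UMIs 36, 54, 50, 126 and 66. With 20 UMIs in place of 100 the first 3 counts were 209, 191 and 302 and the last 521; with a ratio of 2 and an interval over 1 they were 165, 246, 246, 985 and 347. Also chosen after seeing the data, leaving out groups 2, 4 and 6 gave 43 and 61 genes higher in caput than corpus and cauda, and thinning the sums gave 67 and 90 genes higher in corpus and cauda than caput. Beside these 67 and 90, the thinned sums gave 80 and 117 genes higher in caput. More genes were then higher than lower in caput in both comparisons, the reverse of the main counts. A Leiden resolution of 1.0 gave 11 groups instead of 6.

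Cilp, Apod and Hoxc8 passed the size rule in both comparisons under each of 18 alternatives, Inhba under 16 of 18 in both and Hoxa7 under 11 (corpus) and 16 (cauda). Inhba was short of it when members over 2% principal-cell UMIs were left out and when cells were thinned, with ratios of 9.65 to 15.7 over corpus and 4.62 to 7.71 over cauda throughout. Among calls lower in caput, Nfil3 held against the corpus under 11 (4.24 to 12.9-fold) and Hoxc10 under 13, and against the cauda Spz1 under 10 (1.46 to 20.9-fold), Scube2 under 11, Cxcl13 under 12 and Hoxa11, Car3, H19 and Ebf2 under 15. Wfdc18, higher in caput, held under 15 in both. Scube2 (1 caput UMI) turned over: its log2 ratio of caput over cauda was -4.00, and 0.50 with cells thinned to 1000 UMIs. Counting error of the 1450084 caput UMIs limits genes under about 100 UMIs.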
